A study of Mus musculus with 15 samples.

Results

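The adult β-globin genes of the mouse, Hbb-b1 and Hbb-b2, were followed here through the chromatin contacts around them. The contacts were measured by NG Capture-C, which joins DNA pieces that lie close together in the nucleus and enriches the joined products with oligonucleotides for chosen promoters. The promoters of Hbb-b1 and Hbb-b2 were captured as viewpoints, and a read in the tables marks a DpnII restriction fragment that had been joined to one of them. The members are the 63 fragments on chromosome 7 (mm9) with a midpoint in the 30 kb that hold both genes and more than 2 kb from the midpoint of either viewpoint. They came from 637418 fragments in all, of which 135286 lay on chromosome 7 outside the 2 kb zones and 2225 of these within 500 kb of the viewpoints. The rule that chose them uses position only, but it was set with earlier results of these data known. The tables leave a gap at each captured promoter, chr7:110961283-110963273 at Hbb-b2 and chr7:110975292-110977138 at Hbb-b1, with midpoints 13.94 kb apart, and 5 fragments beside the gaps were left out by the 2 kb rule. Reads from both promoters were pooled by the authors into 1 column per library, so a read between the genes cannot be assigned to one promoter, and joins of promoter to promoter fall in the gaps and have no value.

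The 15 libraries came from 9 groups. Control erythroid cells had 3 libraries. The R1R2_KO group, without the α-globin regulatory elements R1 and R2, and the R2R3_KO group, without R2 and R3, also had 3 each, labelled as biological replicates. Cells lacking R1, R2, R3, Rm or R4 alone (R1_KO, R2_KO, R3_KO, Rm_KO, R4_KO) and E14 embryonic stem (ES) cells had 1 library each and thus no measure of replicate spread. The 14 erythroid libraries were grown from fetal liver at E12.5, expanded for 5 to 7 days, freed of mature Ter119-positive red cells and then differentiated for 18 hours, and all carry the strain label F1 C57Bl6 / CBA. The ES library is labelled 129/Ola. All deletions lie in the α-globin cluster on another chromosome, so no element of the β-globin locus was targeted in any group. The labels do not say whether the deletions were present on both chromosomes.

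As background, adult haemoglobin pairs α-globin chains with β-globin chains, and in the adult mouse the β chains are made from the neighbouring genes Hbb-b1 and Hbb-b2. Both are switched on in erythroid cells by a distal enhancer, the locus control region, which lies beyond the embryonic genes Hbb-bh1 and Hbb-y, and the promoters of active globin genes are known to loop to it. The genes read away from the locus control region, so the 5-prime side of Hbb-b1 faces it and the 3-prime side of Hbb-b2 faces away. Inbred strains carry different forms of the adult pair, and C57BL/6, the strain of the mm9 assembly, carries the form whose genes are named Hbb-bs and Hbb-bt.

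In the RefSeq table for GRCm38.p6, a later build, Hbb-bt and Hbb-bs stand first in the row of neighbours that continues with Hbb-bh3, Hbb-bh2, Hbb-bh1 and Hbb-y, while Hbb-b1 and Hbb-b2 are listed apart from it. The promoters of Hbb-bs and Hbb-bt, the adult pair of that build, are shown because the captured viewpoints are promoters of the adult pair. Each run holds the 250 bases before the start site, 5′ to 3′ on the minus strand, from RefSeq for GRCm38.p6, and capitals mark matches on either strand to the letters CACCC of the CACCC box, the letters CCAAT of the CCAAT box and the letters TATAA of the TATA box.
Hbb-bs, chr7:103827929-103828178: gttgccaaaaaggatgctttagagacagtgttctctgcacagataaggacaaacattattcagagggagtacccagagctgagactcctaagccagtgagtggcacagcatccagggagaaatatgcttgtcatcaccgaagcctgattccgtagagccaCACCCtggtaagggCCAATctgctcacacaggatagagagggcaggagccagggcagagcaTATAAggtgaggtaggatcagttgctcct
Hbb-bt, chr7:103813924-103814173: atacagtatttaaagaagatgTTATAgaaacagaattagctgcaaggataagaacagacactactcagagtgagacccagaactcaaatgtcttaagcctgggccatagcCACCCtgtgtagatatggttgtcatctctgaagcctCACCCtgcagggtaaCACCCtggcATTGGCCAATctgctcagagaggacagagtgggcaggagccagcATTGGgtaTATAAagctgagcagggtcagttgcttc
The promoters were alike, with 178 identical of 257 aligned columns (69.3%). Hbb-bs held 1 match to CACCC, beginning 90 bases before the start site, 1 to CCAAT at 76 bases and 1 to TATAA at 29 bases. Hbb-bt held 3 matches to CACCC, 3 to CCAAT and 2 to TATAA, and a pair of its CCAAT matches lie end to end on opposite strands. These letters are common: of 32851 RefSeq promoters cut to the same length, 52.0% held CACCC, 33.8% CCAAT and 22.8% TATAA. DpnII cuts at GATC, which was found in the Hbb-bs run once, 14 bases before the start site, and not in the Hbb-bt run, against 41.9% of all promoters. A match is a description of the letters, and none was tied to a contact value.

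The depth limited what could be seen in single fragments. The 9 replicated libraries held 25573 to 63612 reads on chromosome 7 outside the 2 kb zones, and the 6 single libraries 147721 to 236317. The single libraries were deposited in a table of their own without a control, so values set across the tables compare libraries tabulated apart. Chi-square per degree of freedom between replicates was 7.45 and 7.22 for R1R2_KO library 1 against libraries 2 and 3, and 1.61 to 3.15 for the other 7 pairs. R1R2_KO library 1 therefore stands apart at this viewpoint, and results that rest on it are also given without it. As a check of labels, contacts of the α-globin viewpoint with R1, R2 and R3 kept 6.15% to 28.4% of the control mean in the libraries lacking those elements in pairs. In R1_KO, R2_KO and R3_KO the deleted element kept 18.9% to 41.9% of the control mean, which lies in the other table. The 41.9% is that of R1_KO at R1. ES, which carries no deletion, kept 20.3% at R1, 22.0% at R2 and 36.4% at R3, so a low value alone does not mark a deletion.

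In control cells the contacts per length were higher between the adult genes than on either outer side of the pair. Values are reads per 100000 chromosome 7 reads outside the 2 kb zones, given as mean ± SD (n = 3) for replicated groups. The names locus control region and embryonic genes stand for intervals set by position, chr7:110994810-111023773 and chr7:110980132-110994809. No mm9 annotation of genes was used, so whether each embryonic gene lies in the interval named for it was not checked. In control the window of 63 fragments summed to 13421 ± 1350. The 63 fragments of the locus control region summed to 24151 ± 1362 and the 33 over the embryonic genes to 7760 ± 501. Per kb of fragment these sums were 632 ± 63.6, 836 ± 47.1 and 531 ± 34.3, so per length the adult window lay between the other regions. Within the window, the 32 fragments between the genes held 8017 ± 1093, the 29 fragments 3-prime of Hbb-b2 held 3833 ± 412 and the 2 fragments 5-prime of Hbb-b1 held 1571 ± 146. Per kb the segment between the genes was the highest at 845 ± 115. The 5-prime side of Hbb-b1 followed with 626 ± 58.4 and the 3-prime side of Hbb-b2 with 415 ± 44.6. In control library 1 the first of these was 714 and the second 692. Between the genes R1R2_KO library 1, R1_KO and ES had 423, 605 and 392 per kb. On the 5-prime side of Hbb-b1 they had more, 785, 623 and 424. In every other library the segment between the genes was the higher. A viewpoint lies at each end of that segment, and distance to a viewpoint was not corrected for.

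The fragments with the highest control means were ranked by reads per fragment, not per kb. Between the genes and on the 3-prime side of Hbb-b2 they lay towards a promoter. The side of Hbb-b1 that faces the locus control region has only 2 fragments, so each is given. There chr7:110977622-110979067 had 1077, 860 and 817 in the 3 control libraries and chr7:110979068-110980131 had 659, 660 and 640. Between the genes the highest were chr7:110973665-110974330 (777, 901 and 956), next to Hbb-b1, chr7:110964350-110964785 (551, 813 and 844), next to Hbb-b2, and chr7:110973054-110973294 (569, 750 and 690). The highest fragments of the segment thus lay at its ends. On the far side of Hbb-b2 they were chr7:110958540-110959282 (464, 562 and 707), chr7:110957505-110958539 (460, 491 and 514) and chr7:110957191-110957451 (284, 285 and 259). Over all 63 members the control mean ran from 0 to 918 with a median of 106, the fragment length from 22 to 1446 bp with a median of 241, and 3 members had under 10 reads over the 15 libraries.

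**Figure D1:**
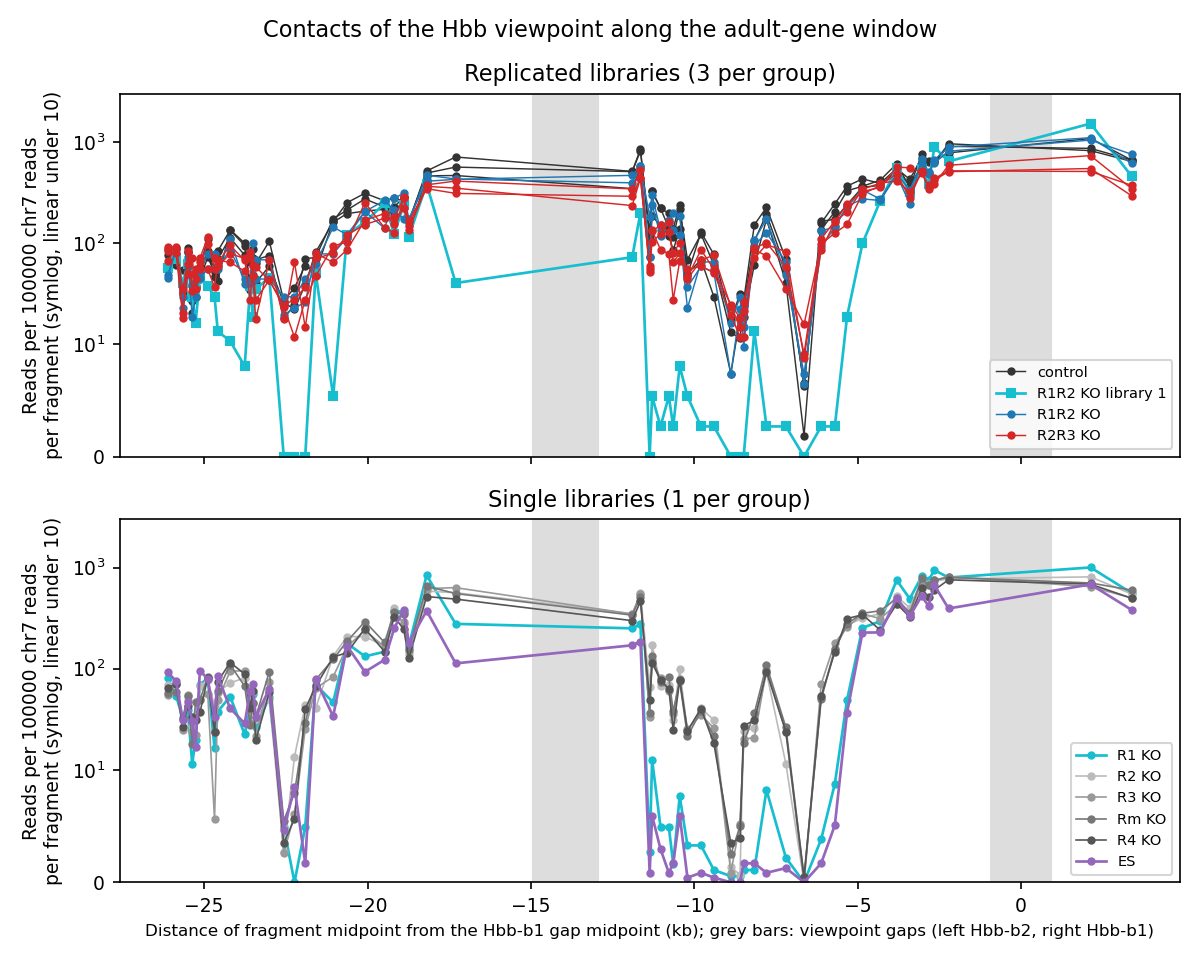
Reads per 100000 chromosome 7 reads at each member fragment (vertical axis, logarithmic above 10 and linear below), against distance from the Hbb-b1 gap midpoint in kb, for the 9 replicated libraries (top) and the 6 single libraries (bottom). Each line is 1 library and grey bars are the viewpoint gaps. Between about 6 and 11 kb left of Hbb-b1 the lines of R1R2_KO library 1, R1_KO and ES lie low throughout. There the other 12 libraries lie higher at the fragments listed below as nearly empty. At unlisted fragments some of their lines also fall near 0, as in R2_KO and R3_KO, both 0 at chr7:110969493-110969657.

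The window sum had its highest group mean in control and its lowest value in the ES library. The control libraries gave 11911, 13841 and 14511, the R1R2_KO libraries 8025, 12049 and 11787, and the R2R3_KO libraries 9795, 9635 and 8974. Only R1R2_KO library 1 lay outside the range of its group's other libraries by a wide margin. The single libraries gave 11772 in Rm_KO, 11659 in R2_KO, 11147 in R3_KO, 10605 in R1_KO, 10331 in R4_KO and 7470 in ES. Wilson 95% intervals, which cover counting error only, were 11631 to 11913 for Rm_KO and 11496 to 11824 for R2_KO, so these neighbours in the order were not told apart. They were 10465 to 10747 for R1_KO and 10208 to 10456 for R4_KO, which just failed to overlap.

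Between the genes the libraries took nearly the same order. Control gave 6775, 8442 and 8835, R1R2_KO 4015, 7068 and 6861, and R2R3_KO 5778, 5828 and 5213. The control libraries lay above every R2R3_KO library and overlapped with R1R2_KO. R2_KO had 6663, Rm_KO 6630, R3_KO 6451, R4_KO 5787, R1_KO 5743 and ES 3714. The intervals of R2_KO (6537 to 6791) and Rm_KO (6522 to 6740) overlapped, as did those of R4_KO (5692 to 5883) and R1_KO (5637 to 5850), and ES (3639 to 3791) lay below all the others.

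The outer sides of the pair gave different orders. On the 3-prime side of Hbb-b2 control gave 3400, 3879 and 4219, R1R2_KO 2038, 3272 and 3135, and R2R3_KO 2942, 2970 and 2882, with every knockout pair library below every control library. The single libraries had 3839 in Rm_KO, 3640 in R2_KO, 3549 in R3_KO, 3361 in R4_KO, 3300 in R1_KO and 2692 in ES. On the 5-prime side of Hbb-b1 control gave 1737, 1521 and 1457, R1R2_KO 1972, 1709 and 1791, and R2R3_KO 1074, 837 and 880. The R2R3_KO libraries were the low ones there, and R1R2_KO library 1, the low library elsewhere in the window, had the highest value of all 15. The single libraries had 1563 in R1_KO, 1357 in R2_KO, 1303 in Rm_KO, 1183 in R4_KO, 1147 in R3_KO and 1064 in ES.

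**Figure D2:**
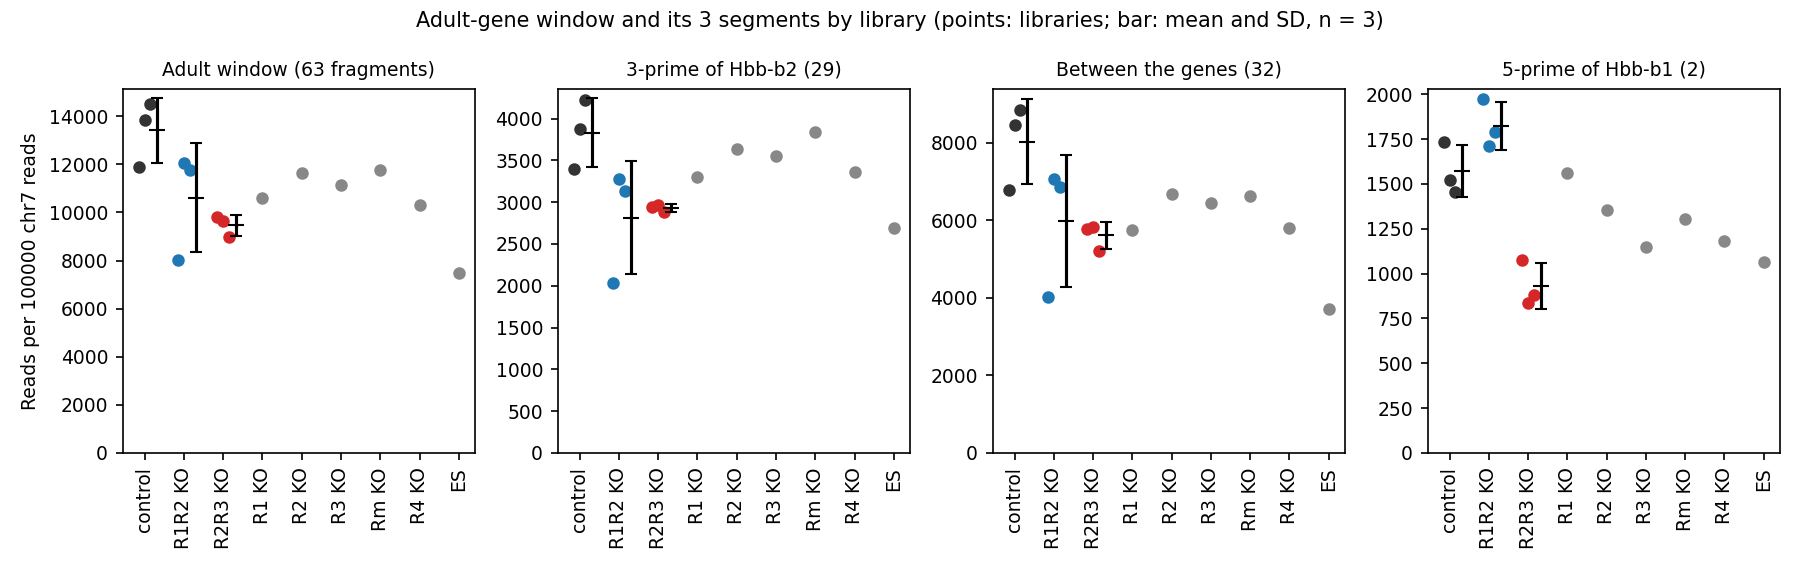
Summed reads per 100000 chromosome 7 reads (vertical axes from 0) in the adult window and its 3 segments, 1 point per library by group; bars are the mean and SD of the 3 libraries of a replicated group. The R2R3_KO points lie below all control points in each panel, and R1R2_KO library 1 is the lowest of its group in the first 3 panels and the highest in the panel of the 5-prime side of Hbb-b1.

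In cells lacking R1 and R2, no sum around the adult genes passed the test against control. The window changed from 13421 ± 1350 to 10620 ± 2251, a change of -0.34 in log2 units (SE 0.11, edgeR adjusted p = 0.183), and the segment between the genes from 8017 ± 1093 to 5981 ± 1706 (-0.42, SE 0.14, adjusted p = 0.186). The 3-prime side of Hbb-b2 gave -0.45 (adjusted p = 0.0906) and the 5-prime side of Hbb-b1 gave 0.22 (adjusted p = 0.453), so the points on either side of the pair lay in opposite directions without passing. These p-values were adjusted over all features of the table tested together, of which 1.27% passed in the fit with the window sum and 1.26% in the fit with the segments. An exact two-sided permutation test gave p = 0.2 for the window and 0.3 for the segment between the genes. Without R1R2_KO library 1 the window gave -0.17 (adjusted p = 0.629, with 0.5% of features passing) and the segment between the genes -0.20 (adjusted p = 0.572, with 0.495% passing), and the 3-prime side of Hbb-b2 -0.26 (adjusted p = 0.351). Without R1R2_KO library 2 they gave -0.44 (adjusted p = 0.0154) and -0.56 (adjusted p = 0.00998), and the 3-prime side of Hbb-b2 gave -0.57 (adjusted p = 0.00998), all of which passed.

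At single fragments, 55 of the 63 members had at least 90 reads over the 9 replicated libraries and were tested with the rest of the table. In R1R2_KO against control edgeR called none of the 55, and 0% of all 343 fragments tested were called. Of the 55, 8 had an unadjusted p under 0.05 in edgeR. The share of all 343 at that unadjusted level was not computed, so the 8 cannot be set against it. DESeq2 and limma also called none of the members. The median log2 change was -0.47 over the 55 members and -0.16 over all 343. Without R1R2_KO library 1 it was -0.21 over the members and -0.15 over all 333 fragments then tested, and again no member was called.

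In cells lacking R2 and R3, contacts around the adult genes fell relative to chromosome 7 reads, with the lowest log2 change of the 3 segments on the side of Hbb-b1 that faces the locus control region. That side fell from 1571 ± 146 to 930 ± 127, which is -0.75 on the log2 scale (SE 0.13, edgeR adjusted p = 0.000239). The segment between the genes fell from 8017 ± 1093 to 5606 ± 342 (-0.52, SE 0.14, adjusted p = 0.0243), and the window from 13421 ± 1350 to 9468 ± 435 (-0.50, SE 0.11, adjusted p = 0.0101). The 3-prime side of Hbb-b2 gave 3833 ± 412 and 2931 ± 44.9 (-0.39, adjusted p = 0.109), which did not pass although the groups did not overlap. Of all features tested, 3.36% passed in the fit with the segments and 2.97% in the fit with the window sum. The exact two-sided permutation test gave p = 0.1 for the window and each segment, the smallest that 3 against 3 libraries allow.

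These falls were smaller on a local scale. Taking reads within 500 kb for the library size, the window gave -0.25 (adjusted p = 0.0597) and the segment between the genes -0.26 (adjusted p = 0.144), and neither passed, while the 5-prime side of Hbb-b1 still did at -0.52 (adjusted p = 0.0392). In the same libraries and on the chromosome scale, the locus control region was 18814 ± 1127 against 24151 ± 1362 in control. The embryonic genes had 5855 ± 354 against 7760 ± 501, and the 5 fragments beside the gaps 2167 ± 439 against 3949 ± 255. The file headers number the R2R3_KO libraries 1 to 3 again after R1R2_KO 1 to 3 and control 4 to 6; where that stands for a separate run, the run and the group cannot be told apart. The call between the genes was lost without any 1 of control libraries 2 and 3 and R2R3_KO libraries 1, 2 and 3, with log2 changes of -0.54 to -0.44. The call of the window was lost without control library 2 (-0.48) or 3 (-0.44) or R2R3_KO library 2 (-0.52) or 3 (-0.47). The call on the 5-prime side of Hbb-b1 was kept without each of the 9 libraries in turn (-0.87 to -0.68). Among the alternatives of processing it was lost with no filter on low counts (-0.76, edgeR adjusted p = 0.668). It could not be tried with a 5 kb zone, which removes the 2 fragments of that side.

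The fragment test called 4 of the 55 members in R2R3_KO against control, all lower, against 1.75% of all fragments tested. At chr7:110979068-110980131, on the 5-prime side of Hbb-b1, control gave 659, 660 and 640 and R2R3_KO 345, 293 and 371, or -0.96 on the log2 scale (SE 0.17, edgeR adjusted p = 0.0313). At chr7:110955510-110955664, on the 3-prime side of Hbb-b2, control gave 195, 212 and 250 and R2R3_KO 85.5, 120 and 102 (-1.09, SE 0.24, adjusted p = 0.0448). The other called members lie beside Hbb-b1 on its 3-prime side. At chr7:110973295-110973475 the values were 488, 629 and 652 against 372, 354 and 344 (-0.72, SE 0.15, adjusted p = 0.0448), and at chr7:110973665-110974330 they were 777, 901 and 956 against 586, 506 and 516 (-0.71, SE 0.14, adjusted p = 0.0377). At none of the 4 did a control library reach down to an R2R3_KO library. They were picked by this same contrast, so the lack of overlap adds no support. The median log2 change was -0.45 over the 55 members and -0.22 over all 343 fragments.

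The calls depended on 1 library of a group that the contrast does not compare. Without R1R2_KO library 1 all 3 segments passed, among 8.42% of all features, and the window passed among 7%. The 3-prime side of Hbb-b2 then had an adjusted p of 0.00147 in edgeR, and without R1R2_KO library 2 an adjusted p of 0.0482. In the fragment test without R1R2_KO library 1, which shares the estimate of spread, 21 of 55 members were called in R2R3_KO against control, all lower, against 19.2% of all fragments tested, and the median over the members was again -0.45. Without control library 2 or 3 or any R2R3_KO library the count was 0, and without control library 1 or R1R2_KO library 2 it was 2. With only control and R2R3_KO libraries in the fit it was 21, with limma 2, and with DESeq2, TMM factors or the 500 kb scale 0. Except for the fit without R1R2_KO library 1, the share of all fragments called in these fits is not given. Those counts therefore cannot be set against it.

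**Figure D3:**
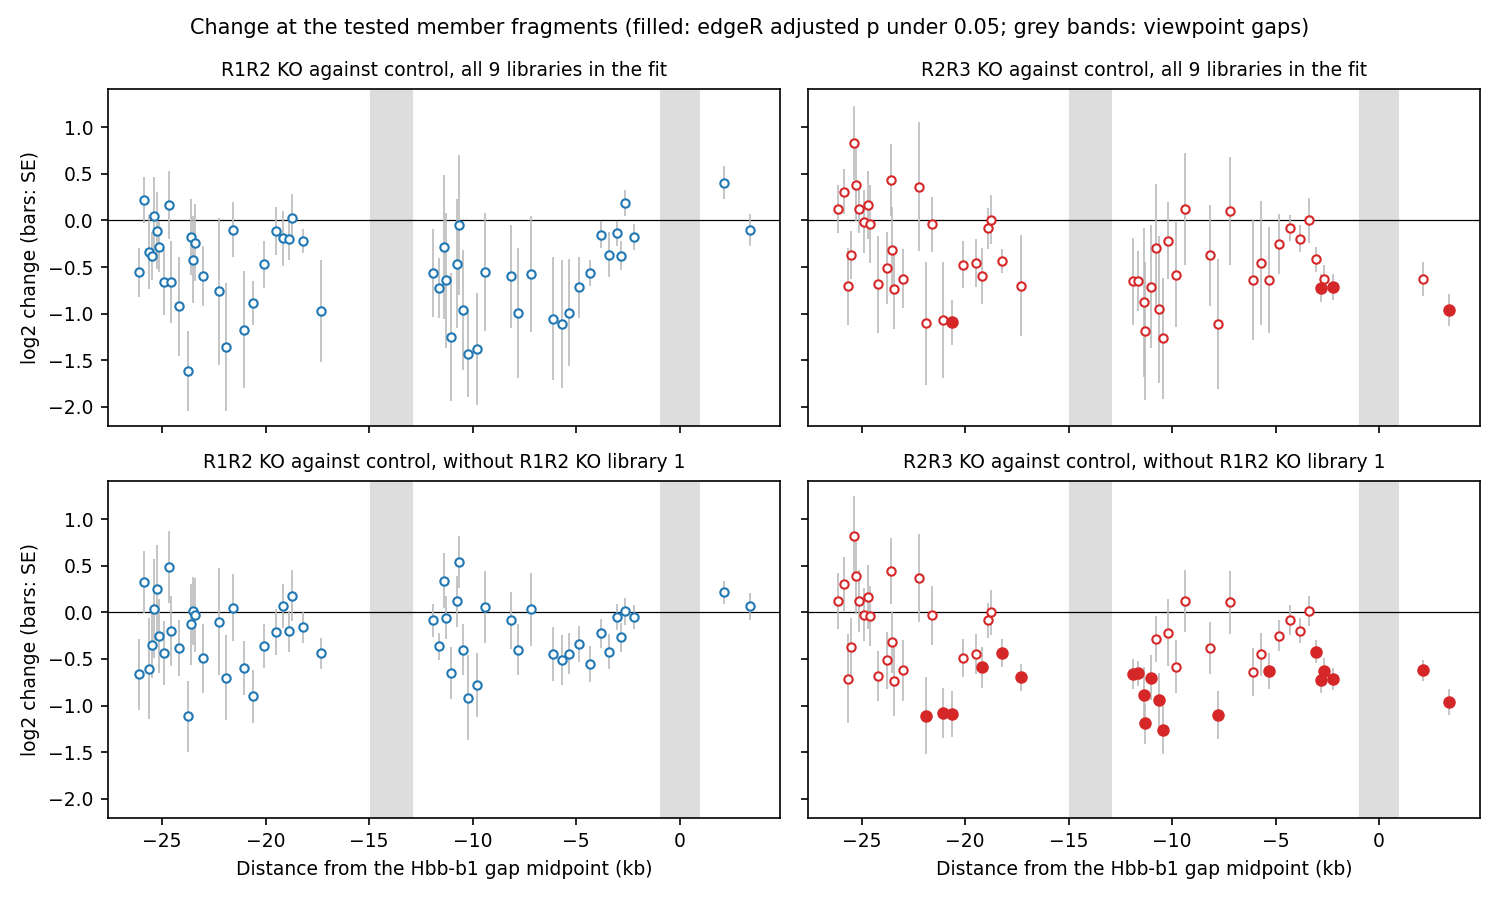
Log2 change with its SE (vertical axes) at each of the 55 tested member fragments against distance from the Hbb-b1 gap midpoint in kb, for R1R2_KO (left) and R2R3_KO (right) against control, with all 9 libraries in the fit (top) and without R1R2_KO library 1 (bottom); filled points passed an edgeR adjusted p of 0.05 and grey bands are the viewpoint gaps. No R1R2_KO point is filled, and the filled R2R3_KO points number 4 in the top panel and 21 in the bottom panel, all below 0.

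Set against each other, the knockout pairs differed on the 5-prime side of Hbb-b1. R2R3_KO had 930 ± 127 there and R1R2_KO 1824 ± 134, a log2 change of -0.97 for R2R3_KO over R1R2_KO (SE 0.13, edgeR adjusted p = 2.03e-06), with 0.42% of all features passing in that fit. With the 500 kb scale it was -0.90 (adjusted p = 1.9e-05), and without each of the 9 libraries in turn it ran from -1.09 to -0.90 and passed each time. The segment between the genes gave -0.09 (SE 0.14, adjusted p = 0.775) and the window -0.16 (SE 0.11, adjusted p = 0.485). Without R1R2_KO library 1 both passed, at -0.31 (adjusted p = 0.0447, with 5.94% of features passing) and -0.33 (adjusted p = 0.0107, with 6% passing). The segment between the genes turned to 0.05 without R1R2_KO library 2 and to 0.02 without library 3, neither passing.

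Of single members, 3 of 55 were called lower in R2R3_KO than in R1R2_KO, against 2.62% of all fragments tested. At chr7:110977622-110979067 R1R2_KO had 1513, 1097 and 1039 and R2R3_KO 729, 544 and 508 (log2 change -1.03, SE 0.18, edgeR adjusted p = 0.0132). At chr7:110979068-110980131 the values were 458, 613 and 753 against 345, 293 and 371 (-0.85, SE 0.18, adjusted p = 0.0293). At chr7:110973476-110973653 they were 884, 664 and 617 against 382, 418 and 434 (-0.81, SE 0.15, adjusted p = 0.0132). All 3 lie within a few kb of the Hbb-b1 promoter, on both sides of it. Without R1R2_KO library 1 the count was 8, all lower, against 6.91% of all fragments. Without R2R3_KO library 1 it was 1, and without library 2 or 3 of that group it was 0. The share of all fragments is not given for the fits without an R2R3_KO library.

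A stretch between the genes was nearly empty in R1R2_KO library 1, R1_KO and ES and filled in the other 12 libraries. A fragment was listed when the median of the 12 other libraries was at least 20 reads per 100000, each of the 3 named libraries was at or under 10% of that median, and each of the 12 was at or over 25% of it. The rule names these libraries, so the list is a description of their values and carries no test. Of the 63 members, 56 had a median high enough to be judged, and 13 of these (23.2%) were listed. Over all of chromosome 7 outside the zones 17 of 356 fragments were listed (4.78%), which leaves 4 of 300 outside the window (1.33%). All 13 listed members lie between Hbb-b2 and Hbb-b1, from chr7:110964839 to 110970616, in a run of 20 member fragments of which 15 could be judged. A reverse rule asked for at least 20 in each of these 3 and for each of the other 12 at or under 10% of their median. It found no fragment, but it asks more libraries to be low than the first rule, so the counts are not like for like.

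Summed over the 20 fragments of the stretch, the 3 named libraries had 58.9 (R1R2_KO library 1), 68.4 (R1_KO) and 32.2 (ES) reads per 100000, from 22, 125 and 76 reads. The Wilson 95% intervals were 38.9 to 89.2, 57.5 to 81.5 and 25.7 to 40.2. Control gave 1547, 2138 and 2408, R1R2_KO libraries 2 and 3 gave 1739 and 1808, and R2R3_KO gave 1422, 1343 and 1087. The other single knockouts gave 965 in R2_KO, 923 in Rm_KO, 916 in R3_KO and 874 in R4_KO. The lowest of the 12 libraries was thus more than 12 times the highest of the 3 named ones, and the 4 single knockouts lay below all 8 filled libraries of the other table. As a share of the reads between the genes, the stretch held 1.47%, 1.19% and 0.866% in R1R2_KO library 1, R1_KO and ES, 13.9% to 15.1% in the 4 other single knockouts and 20.9% to 27.3% in the 8 other replicated libraries.

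The listed fragments were chosen for this split, and their values in each library describe its size. At chr7:110964861-110964988, the listed member with the highest control values, control gave 184, 323 and 324, R1R2_KO 5.36, 238 and 295, and R2R3_KO 131, 102 and 133. R1_KO gave 12.6 and ES 5.92 there, while R2_KO gave 173, R3_KO 122, Rm_KO 132 and R4_KO 115. At chr7:110970418-110970616, at the other end of the stretch, control gave 171, 204 and 244, R1R2_KO 2.68, 143 and 146, R2R3_KO 165, 161 and 125, R1_KO 8.76 and ES 5.08. The 4 other single knockouts gave 147 to 180 at this fragment, so it was as full in them as in the replicated libraries. At chr7:110965497-110965644, the member with the lowest share, R1R2_KO library 1 had 2.68, R1_KO 1.64 and ES 1.69, against 24.8 to 198 in the other 12. In the deposited counts these 3 values rest on 1, 3 and 4 reads.

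Further listed members with high control values follow, each with its range over the 12 filled libraries. chr7:110964989-110965375 had 2.68 in R1R2_KO library 1, 4.93 in R1_KO and 2.96 in ES against 67.7 to 220.1 in the others. chr7:110965645-110965893 had 8.04, 7.67 and 5.92 in the same libraries against 66.5 to 239. chr7:110968305-110968545 had 2.68, 8.21 and 0.846 against 74.3 to 225.

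Long and short members were among those listed. chr7:110969782-110970417, with 636 bp, had 2.68, 3.83 and 1.69 in R1R2_KO library 1, R1_KO and ES against 49.8 to 164. chr7:110965376-110965496, with 121 bp, had 5.36, 4.93 and 0.846 against 60.4 to 197. chr7:110964839-110964860, with 22 bp, had 0, 2.74 and 0.846 against 33.6 to 182; the 0 in R1R2_KO library 1 allows up to 3 reads.

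The remaining listed members had lower values throughout. chr7:110966263-110966580 had 0.846 to 3.29 in the named libraries against 34.9 to 127 in the 12. chr7:110966673-110966957 had 0.423 to 2.68 against 18.3 or more, chr7:110968546-110969492 had 1.27 to 2.68 against 11.5 to 81.9, and chr7:110967680-110967774 had 0 to 1.69 against 9.74 to 27.4. The last of these lies at the minimum median that the rule allows, and a single read is worth a sizeable part of its level in a replicated library.

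The list has graded edges. Just inside the 10% limit were chr7:110964861-110964988, chr7:110967680-110967774 and chr7:110965645-110965893, where the highest of the 3 named libraries reached 8.2%, 8.1% and 8.0% of the median of the 12. Just outside were chr7:110954233-110954382 (13.1%), chr7:110965894-110966118 (13.3%) and chr7:110967803-110968304 (17.1%). The first of these lies on the far side of Hbb-b2, and the others lie inside the stretch. Beyond the stretch towards Hbb-b1 came chr7:110970617-110971167, with 18.8 in R1R2_KO library 1, 49.3 in R1_KO and 36.8 in ES against 152 to 365 in the other 12. Beyond it towards Hbb-b2 came chr7:110964350-110964785, with 198, 275 and 186 against 436 to 844. On the far side of Hbb-b2, chr7:110958540-110959282 had 40.2, 278 and 113 against 309 to 707. Further out on that side, chr7:110954816-110955509 had 5.36, 46.5 and 33.9 against 64.1 to 173, so low values in the named libraries were not limited to the stretch. Next to Hbb-b1 at chr7:110973476-110973653, by contrast, R1R2_KO library 1 (884) and R1_KO (944) were the highest of all 15 libraries and ES had 669.

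**Figure D4:**
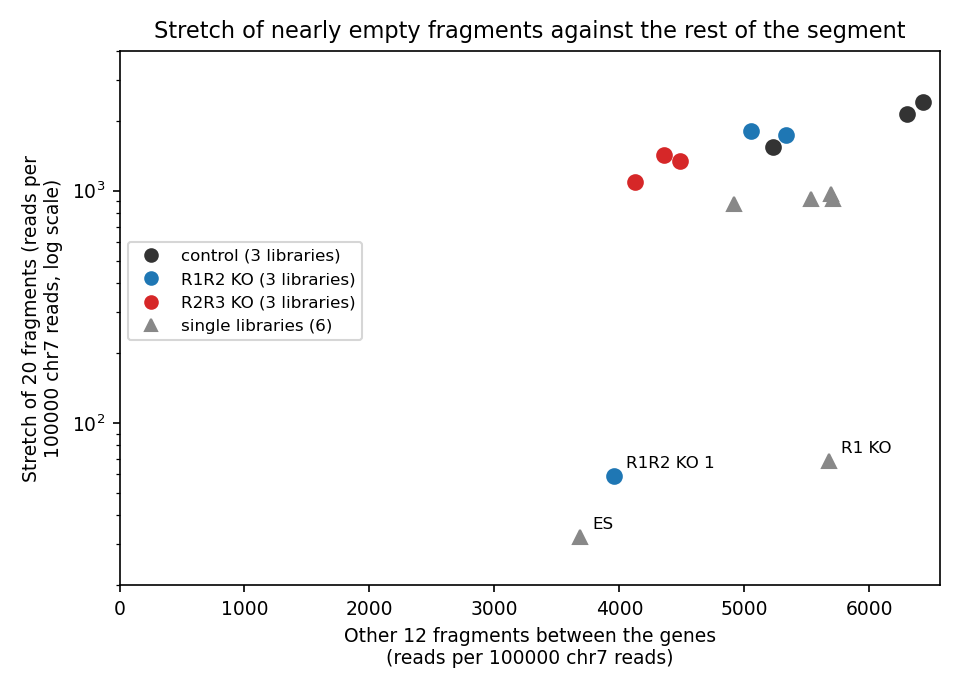
Reads per 100000 chromosome 7 reads in the stretch of 20 fragments (vertical axis, logarithmic) against those in the other 12 fragments between the genes (horizontal axis, linear), 1 point per library. R1R2_KO library 1, R1_KO and ES lie between 32.2 and 68.4 on the vertical axis and the other 12 libraries between 874 and 2408, while the horizontal values of R1R2_KO library 1 and ES lie below, and that of R1_KO within, the range of the other 12.

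In the sum of the other 12 fragments between the genes R1R2_KO library 1 had 3956, R1_KO 5674 and ES 3682, against 4125 to 6426 in the other 12 libraries. The window was also summed with the stretch left out, a step chosen after seeing the data. Against control it then changed by -0.48 on the log2 scale of group means in R2R3_KO and by -0.27 in R1R2_KO. Control overlapped with neither, but its lowest library had 10364.5 and the highest R1R2_KO library 10310.3. In edgeR the change passed in R2R3_KO (adjusted p = 0.000999) and not in R1R2_KO (adjusted p = 0.183). Elsewhere on chromosome 7 the rule listed chr7:111005790-111005939 and chr7:111012242-111012280 in the locus control region and the adjoining fragments chr7:111059717-111059869 and chr7:111059870-111060063. None of 32 judged fragments over the embryonic genes was listed, against 2 of 63 in the locus control region. By their labels, R1R2_KO library 1 and R1_KO both lack R1, as do R1R2_KO libraries 2 and 3, which were filled, and ES carries no deletion. ES is labelled 129/Ola, and R1R2_KO library 1 and R1_KO are labelled F1 C57Bl6 / CBA like the 12 filled libraries. The form of the adult pair that each library carries is not among the labels, and the part of genotype, strain or that form in this pattern was not tested.

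Contact between the genes was also set against contact with the locus control region. Reads between the genes per read of the locus control region, a ratio within each library that needs no scale, were 0.299, 0.345 and 0.349 in control, 0.192, 0.296 and 0.304 in R1R2_KO, and 0.288, 0.327 and 0.280 in R2R3_KO. The group means were 0.331 ± 0.0277, 0.264 ± 0.0624 and 0.299 ± 0.025. The exact two-sided permutation test gave p = 0.2 for each knockout pair against control and 0.6 between the pairs; since 0.1 is the smallest p that 3 against 3 libraries allow, this test could not pass 0.05. Of the single knockouts R2_KO had the lowest ratio at 0.247, and R1_KO, R3_KO, R4_KO and Rm_KO had 0.284, 0.288, 0.286 and 0.296. These ratios count the stretch that was nearly empty in R1R2_KO library 1, R1_KO and ES. With the stretch left out R1_KO had 0.280, above the 0.189 to 0.257 of the other erythroid libraries, of which R1R2_KO library 1 was the lowest.

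The ES library had a higher ratio. It was 0.719, above the 0.192 to 0.349 of the 14 erythroid libraries, and its contact with the locus control region was 5168 against 17818 to 26956 in them. Contact over the embryonic genes was 6282 in ES, inside the erythroid range of 5518 to 8284. The ES library also had the lowest sum of the 5 fragments beside the gaps, 1326 against 1904 to 4203 in the erythroid libraries. With 1 ES library these are values without a test, and cell type and strain label cannot be told apart in it. The 5 single knockouts of the same table had ratios of 0.247 to 0.296 and, with the stretch counted, lay with the other erythroid libraries.

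Other regions followed the adult window to different degrees. The measure of likeness was the SD over the 15 libraries of the log2 ratio of the window sum to each 5 kb bin within 500 kb with at least 100 reads in every library. Of 19 such bins the most alike was chr7:110995001-111000000, at the near end of the interval taken as the locus control region, with an SD of 0.126. Next came chr7:110940001-110945000, on the far side of Hbb-b2 (0.152), and chr7:110985001-110990000, over the embryonic genes (0.182). The whole interval of the embryonic genes gave 0.160 and the whole locus control region 0.419, to which the low ES value belongs. With the stretch left out of the window sum, chr7:110995001-111000000 gave 0.121 and chr7:110985001-110990000 gave 0.131. Then came chr7:110980001-110985000 (0.177) and chr7:110940001-110945000 (0.179). The interval of the embryonic genes then gave 0.104 and the locus control region 0.45. All bins share library and depth with the window.

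The α-globin viewpoint gave no second view of the window. Its table held 0 to 12 reads per library in the 63 fragments, 10 in all in R1R2_KO library 1, R1_KO and ES and 62 in the other 12 libraries. Of the 20 reads in the 9 replicated libraries, 12 came from R2R3_KO library 2. In the stretch it held 2 reads in the 3 named libraries and 3 in the other 12. The counts in the stretch are too few to compare the libraries, and no test was made.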

How the data were processed

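The authors deposited raw read counts per DpnII fragment in mm9, as 1 pooled Hbb table for control and knockout pairs and another for single knockouts and ES; per the submitters' processing notes, the tools were Bowtie and Trim Galore (no versions given). In each table with controls 7 further columns match no sample and were not used. The handling of reads shared by near-identical β-globin copies is not given there. The growth of the ES cells is not described either, since that sample's protocol text is the one for fetal liver.

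Library size was chromosome 7 reads more than 2 kb from a gap midpoint. Fragments with at least 90 reads over the 9 replicated libraries, and in separate fits the window sum or its 3 segments with 5 kb bins of the rest of the table, were tested with edgeR 4.0.16 in R 4.3.3 (quasi-likelihood, group only, all 9 libraries in 1 fit, Benjamini-Hochberg at 0.05 over all features). Permutation tests used scipy 1.17.1. Wilson 95% intervals and the limit of 3 reads for a zero cover counting error only, since PCR reads carry no molecular identifiers. The edgeR step was also run on simulated counts. Those held no library set apart as R1R2_KO library 1 is, and the outcome is not given here. Members and lists were chosen with earlier results of these data known. Named fragments are those past 0.05, the 3 highest in control per segment, the listed nearly empty ones and the 3 on each side of the limit; other fragments at the edges of the stretch or beside a listed one were chosen after their values were seen. Alternatives were DESeq2 1.42.0, limma 3.58.1, TMM factors, other scales, filters and zones, a replicate block, fewer groups and leaving out each library.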

Additional observations from a re-analysis of the deposited data

How the results depend on the processing

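The window in R1R2_KO against control passed with limma (-0.38) and a 5 kb zone (-0.61), and the segment between the genes with limma (-0.49). The 3-prime side of Hbb-b2 passed there with limma (-0.50, adjusted p = 0.0148), without the nearly empty fragments (-0.45, adjusted p = 0.0464) and without their whole stretch, chosen after seeing the data (-0.45, adjusted p = 0.0455), and in R2R3_KO against control with only the 2 groups in the fit (-0.39, edgeR adjusted p = 0.00404). In R2R3_KO against control the window lost its call with the 500 kb scale (-0.25), no filter on low counts (-0.50) and a 5 kb zone (-0.48). The segment between the genes lost it with the 500 kb scale (-0.26), DESeq2 (-0.73), a filter of 30 reads (-0.52), no filter (-0.52) and a 5 kb zone (-0.60). For R2R3_KO against R1R2_KO the window turned to 0.13 with a 5 kb zone, and the segment between the genes to 0.0165 with the 500 kb scale and 0.34 with a 5 kb zone. The 3-prime side of Hbb-b2 turned from 0.0609 to -0.0228 with the whole-table scale, -0.0474 with TMM factors and -0.0934 with DESeq2. No filter adds features to the adjustment. The 5 kb zone removes members, among them the 2 fragments of the 5-prime side of Hbb-b1, so that side has no value there. The cause of the other changes was not tested.

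Member fragments called in R2R3_KO against control were 0 with the 500 kb scale, TMM factors, DESeq2 or no filter, 1 with a 5 kb zone, 2 with limma or a filter of 30 reads, and 21 with only the 2 groups compared. In R2R3_KO against R1R2_KO they were 0 with the 500 kb scale, a 5 kb zone or only the 2 groups, and 1 with no filter. The share of all fragments called under these settings is not given, so the counts of members cannot be set against it. A 5% limit listed 5 nearly empty members and a 20% limit 17, against 13.

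Leaving out each library in turn gave -0.44 to -0.17 (window) and -0.56 to -0.20 (between the genes) in R1R2_KO against control, with 0 fragments called throughout. It gave -0.58 to -0.44, -0.62 to -0.44 and 0 to 21 fragments in R2R3_KO against control, and -0.33 to -0.0643, -0.31 to 0.0459 and 0 to 8 in R2R3_KO against R1R2_KO. On the 3-prime side of Hbb-b2 the last contrast ran from -0.13 to 0.18. The difference in the ratio to the locus control region ran from -0.0871 to -0.0311, from -0.0482 to -0.0232 and from -0.00126 to 0.0547 in the same order.

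Replicate numbers were not used to pair the samples in the main fits. Deviations of same-numbered libraries correlated at -0.132 to 0.328 over 9 pairs, 2 of them over 0.1. Those of libraries with different numbers correlated at -0.329 to 0.312. With 3 libraries per group these values cannot decide whether the samples were paired. With the replicate number as a block the segment between the genes in R1R2_KO against control gave -0.44 (edgeR adjusted p = 0.00556) and passed, as did the 3-prime side of Hbb-b2 at -0.46 (adjusted p = 0.00609) there and at -0.38 (adjusted p = 0.0477) in R2R3_KO against control. The block changed no other call of a sum; the window in R1R2_KO gave -0.35 (adjusted p = 0.0684).

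Depth limits single fragments: 8 of 63 members had too few reads to be tested, and the depth of the replicated libraries leaves 0 to 3 reads behind each nearly empty member in R1R2_KO library 1.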
